A study of Mus musculus with 6 samples.

Results

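The lysyl oxidase family of the mouse has 5 genes, Lox, Loxl1, Loxl2, Loxl3 and Loxl4, and all 5 were taken by their gene names on the array. They were read by 10 probes out of 55681 gene probes, and all 5 genes were among the 22998 genes tested. Hearts of male C57BL/6 mice, aged 8 weeks per the labels, had been treated in either of 2 ways. The first group received the miR-433 antagomir, which is a modified antisense oligonucleotide meant to silence that microRNA, at 80 mg/kg through the tail vein on 3 consecutive days. The second received a scrambled oligonucleotide, and the labels imply the same dose and route for it without stating them outright. All animals in both groups then had the left anterior descending artery of the heart tied to cause a myocardial infarction, and hearts were collected on day 21 after it. Each group had 3 samples, and uninjured hearts are not analysed here. The labels do not state whether each sample was a separate mouse, or whether scar, border or remote muscle was taken, so p-values measure the spread between these samples, which may be technical.

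Lysyl oxidases are secreted copper-dependent enzymes that turn lysine side chains of collagen and elastin into reactive aldehydes, which then condense into the crosslinks that stiffen a scar. All members share a catalytic domain with a copper site and a quinone cofactor. Lox and Loxl1 carry a propeptide that is removed outside the cell, while Loxl2, Loxl3 and Loxl4 carry scavenger receptor cysteine-rich domains in its place. In the infarcted heart these enzymes are known mainly as products of fibroblasts. The study asked whether blocking miR-433 limits fibrosis after infarction, and the family stands at the step where new collagen becomes insoluble.

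The sequences shown are the blocked microRNA and 4 probes of Loxl1 and Loxl2. Fold changes differed by 0.22 between the Loxl1 probes and by up to 1.34 between Loxl2 probes. Each of the 4 has at least 1 reading frame without a stop codon on the sense strand. The Loxl2 probe with the largest difference has no such frame and is not printed. The mature sequence of the microRNA is from RefSeq (GRCm38.p6, chr12:109591781-109591802, plus strand), with its seed, bases 2 to 8, in capitals. The probes are 60 bases long, as the scanner files give them, with mm9 positions, and capitals mark the 7-base complement of the seed, ATCATGA, where it occurs.
mmu-miR-433-3p: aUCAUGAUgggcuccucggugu
Loxl1 probe A_51_P304239, chr9:58138570-58138629, minus strand: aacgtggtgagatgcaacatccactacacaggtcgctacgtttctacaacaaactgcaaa
Loxl1 probe A_55_P2096226, chr9:58145451-58145510, minus strand: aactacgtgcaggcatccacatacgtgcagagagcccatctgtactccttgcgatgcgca
Loxl2 probe A_55_P2131348, chr14:70090017-70090076, plus strand: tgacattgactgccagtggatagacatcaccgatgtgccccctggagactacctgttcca
Loxl2 probe A_51_P275949, chr14:70092141-70092200, plus strand: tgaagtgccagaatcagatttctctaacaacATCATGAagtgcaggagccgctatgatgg
Of the 10 family probes only this Loxl2 probe, A_51_P275949, held ATCATGA, which occurs in 0.515% of all gene probes. The opposite strand motif, TCATGAT, occurs in 0.476% of them. A match of 7 letters is a description of the probe and not a known binding site. The third Loxl2 probe lies at chr14:70095254-70095313 on the plus strand. The Loxl3 probe lies at chr6:83001888-83001947 on the plus strand. The Loxl4 probes lie at chr19:42667320-42667379 and chr19:42668733-42668792 on the minus strand. An exon annotation of mm9 was not used here.

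A single slide held all 6 arrays, and they share 1 scan. The share of gene spots called well above background was 55.2% to 73.6% for antagomir arrays and 57.7% to 58.5% for control arrays. Antagomir array 3 had the highest share, and on it dim probes rich in purines gave signal. Each level given here is a log2 processed signal from which the 75th percentile of its array was subtracted. Each fold change is the mean level of antagomir arrays minus that of control arrays, so in log2 units, with n = 3 per group. Different probes bind with different strength, so their levels are not compared. All 8 cardiomyocyte markers were tested, and their summed signal was 2375 to 2614 times the 75th percentile on antagomir arrays and 1956 to 2325 times on control arrays.

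All 5 family genes had lower mean levels in hearts given the antagomir than in controls. The differences ran from 4.64-fold for Lox, 4.01-fold for Loxl3, 3.69-fold for Loxl2 and 2.78-fold for Loxl1 to 1.89-fold for Loxl4. A lower mean was found in 37.4% of all genes tested (8593) and a higher one in 62.6% (14405). This split depended on the scaling, with 12460 lower and 10538 higher by quantile scaling, and 19993 lower and 3005 higher by median scaling. For Lox, Loxl1, Loxl2 and Loxl3 the groups did not overlap, with the antagomir arrays lower, as in 6.94% of all genes tested, while 8.76% were higher without overlap. By limma, a linear model with moderated variances, 0 of the 5 passed an adjusted p of 0.05 over all genes, where 0.013% of genes passed. At an unadjusted p under 0.05, 4 of the 5 were lower, where 4.16% of all genes were lower and 3.05% higher, and the count was 4 also without control array 2. In whole tissue, fewer cells of a type and less RNA per cell cannot be told apart.

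**Figure D1:**
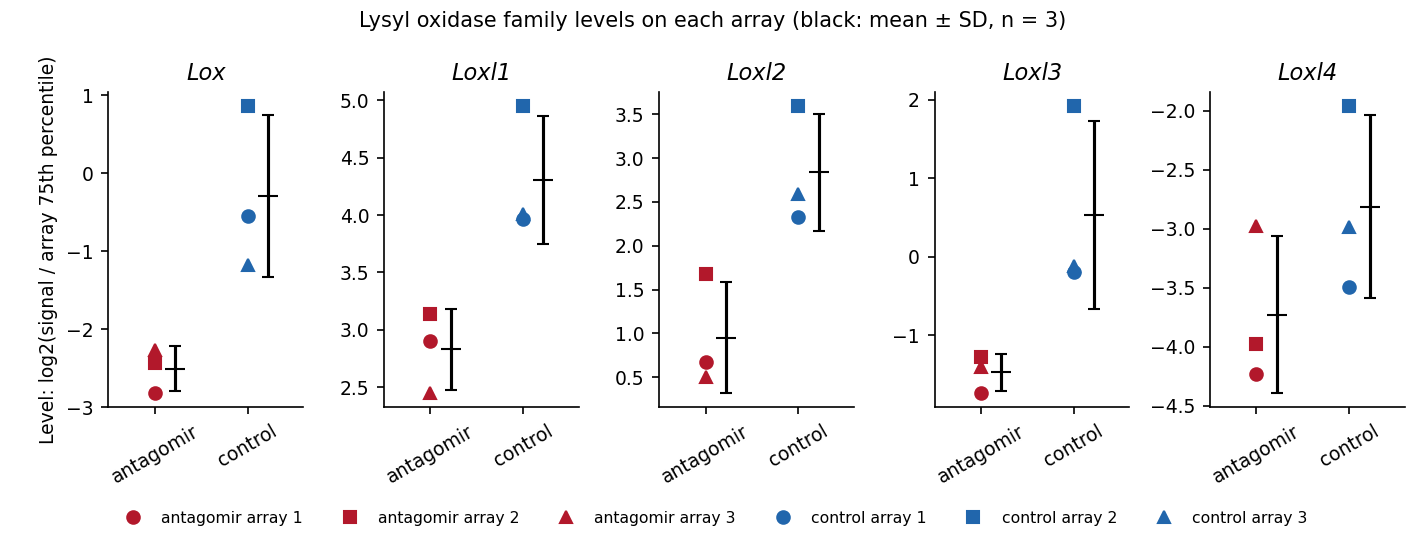
Level of each family gene (log2 of signal over the array's 75th percentile) on the 3 antagomir arrays, left, and the 3 control arrays, right, with mean ± SD in black. Each panel has its own scale. Control array 2 is highest for every gene, and the groups overlap only for Loxl4.

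Lox, on chromosome 18, is the founding member and a main crosslinker of fibrillar collagen and elastin. It had the largest difference of the 5 in the setting used for the text. Its levels were −2.82, −2.43 and −2.27 on antagomir arrays 1 to 3, against −0.55, 0.86 and −1.18 on control arrays 1 to 3. The antagomir arrays lay within 0.55 of each other, while the control arrays spanned 2.04, with control array 2 at the top. The log2 fold change was −2.21 (SE 0.52, 95% interval −3.49 to −0.94, limma adjusted p = 0.559). Processed signals of the probe were 50.9, 67.2 and 82.5 on antagomir arrays and 301, 825 and 186 on control arrays. The other Lox probe, also well above background on all 6 arrays, gave nearly the same value of −2.15 (SE 0.55). Without control array 2 the Lox value was −1.64 (SE 0.28, limma adjusted p = 0.623). With normexp background correction and quantile scaling Loxl2 had the largest difference, at −1.81, against −1.69 for Lox.

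Loxl1, which is known in mice to be needed for the upkeep of elastic fibres, had 2 probes. For the one at chr9:58138570-58138629 levels were 2.90, 3.14 and 2.45 on antagomir arrays 1 to 3, against 3.96, 4.95 and 4.01 on control arrays 1 to 3. The 2 groups were separated by a gap of 0.82, and control arrays 1 and 3 were close together. The difference for Loxl1 was −1.48 (SE 0.33, 95% interval −2.28 to −0.67, limma adjusted p = 0.546). Its second probe, listed above at chr9:58145451-58145510, had a value of −1.26 (SE 0.33) and did not overlap between groups either.

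Loxl2, known for crosslinking both fibrillar and basement membrane collagen, has been tied to stiffening of the failing heart. The probe that stands for the gene had levels of 0.67, 1.67 and 0.51 on antagomir arrays 1 to 3, against 2.33, 3.59 and 2.59 on control arrays 1 to 3. Array 2 was the highest of each group, and the groups stayed 0.65 apart. The log2 fold change was −1.88 (SE 0.45, 95% interval −2.98 to −0.79, limma adjusted p = 0.559). The probe that holds the seed complement had a fold change of −1.43 (SE 0.41). The probe at chr14:70090017-70090076 had a smaller one of −0.55 (SE 0.15), with levels of 0.96, 1.13 and 0.97 on antagomir arrays and 1.47, 1.76 and 1.47 on control arrays. All 3 Loxl2 probes were well above background on all 6 arrays and none overlapped between groups, but the sizes differed.

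Loxl3, whose loss in mice disturbs the palate and spine, was read by 1 probe. Levels were −1.73, −1.28 and −1.40 on antagomir arrays 1 to 3, against −0.19, 1.91 and −0.12 on control arrays 1 to 3. Control array 2 stood 2.10 above the lowest control array, and the antagomir arrays were within 0.45 of each other. The log2 fold change was −2.0 (SE 0.59, 95% interval −3.43 to −0.57, limma adjusted p = 0.612). It was −1.31 (SE 0.19, limma adjusted p = 0.486) without control array 2.

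Loxl4 was the one member whose groups overlapped with the 75th percentile scaling. Levels of the probe that stands for it were −4.24, −3.98 and −2.98 on antagomir arrays 1 to 3, against −3.49, −1.96 and −2.98 on control arrays 1 to 3. Antagomir array 3 was level with control array 3 and above control array 1. The log2 fold change was −0.92 (SE 0.50, 95% interval −2.13 to 0.29, limma adjusted p = 0.692), an interval that takes in no difference and a 4.37-fold lower level. The size depended on the scaling: it was −1.52 (SE 0.47, limma adjusted p = 0.685) with quantile scaling, −1.52 with the authors' values and −0.52 (SE 0.19) with normexp, each at an unadjusted limma p under 0.05. It was −1.29 without antagomir array 3 and −0.49 without control array 2. This probe has 53.3% purines. Of 4504 probes with 50% to 55% purines that were dim on the other 5 arrays, 42.7% were well above background on antagomir array 3, and the part of this in the Loxl4 value was not tested. The second Loxl4 probe was well above background on 1 of 3 antagomir and 2 of 3 control arrays, with a value of −0.14 (SE 0.90).

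**Figure D2:**
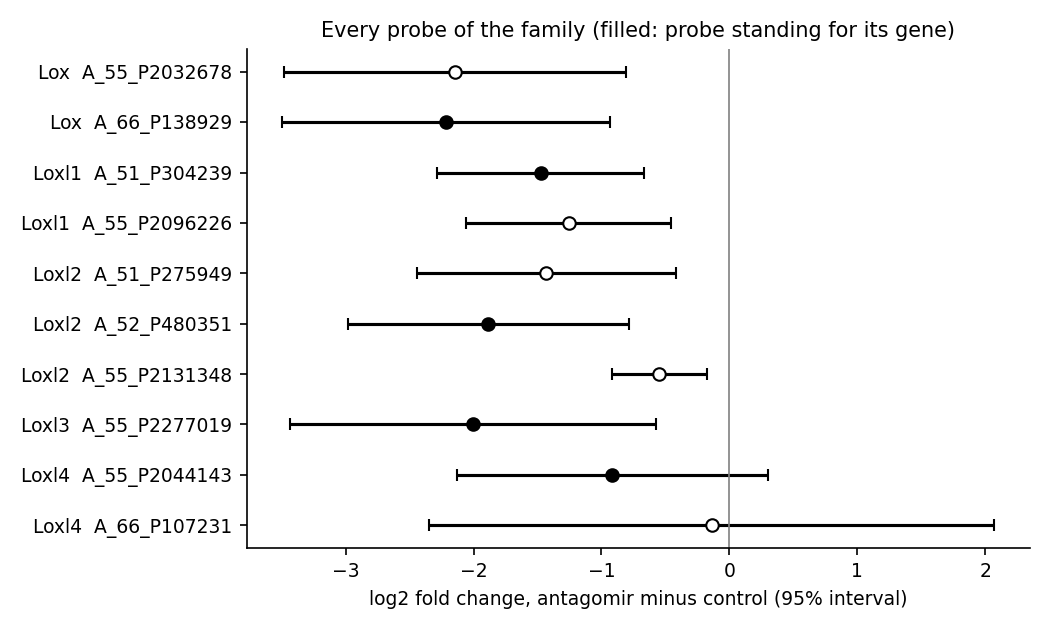
Log2 fold change (antagomir minus control) with its 95% interval from limma for each of the 10 family probes, 1 row per probe, with filled points for the probe that stands for its gene. Intervals of 8 probes lie below 0, and those of the 2 Loxl4 probes cross it.

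Counted by probe, all 10 were lower in the antagomir hearts. Of these, 8 did not overlap between groups, where 6.35% of all probes tested were lower without overlap. The same 8 had an unadjusted limma p under 0.05, where 3.66% of all probes were lower at that level.

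Whether members differed from each other in the size of the change was asked for all 10 pairs, by an exact two-sided permutation test of the difference between both log2 levels on each array. A test of 3 against 3 arrays cannot give a p below 0.1. The Lox fold change lay 1.30 log2 units below that of Loxl4 (antagomir mean difference of levels 1.22 ± 0.45, control 2.52 ± 0.63, SD, n = 3 each, exact p = 0.1). That of Loxl3 lay 1.09 below it (exact p = 0.1). In these 2 pairs the groups did not overlap, but the Benjamini-Hochberg adjusted p over the 10 pairs was 0.5 for both. With quantile scaling these differences were −0.97 for Lox minus Loxl4 and −0.56 for Loxl3 minus Loxl4. The other 8 pairs overlapped. Lox and Loxl3 followed the most similar course over the arrays, with a root mean square difference of 0.27 between their centred values, and Loxl2 and Loxl4 the least similar, with 0.80.

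The substrates of the enzymes were lower with them. Of 9 collagen and elastin genes 8 were tested, and all 8 were lower without overlap, as 6.94% of all genes were, with a median of −2.12, against 0.09 over all genes tested. For Col3a1, which encodes type III collagen, the levels were 3.54, 4.81 and 2.82 on antagomir arrays and 7.13, 7.44 and 6.57 on control arrays, giving −3.33 (SE 0.53, limma adjusted p = 0.496). Eln, which encodes elastin, had levels of −0.28, −0.38 and −0.34 on antagomir arrays and 0.92, 2.05 and 1.41 on control arrays, a fold change of −1.79 (SE 0.29). Both genes kept their groups well apart. Col1a2 (−2.17, SE 0.37) and Col1a1 (−2.82, SE 0.50), the chains of type I collagen, were the other members with the lowest p-values. None of the 8 passed over all genes, and all 8 had an unadjusted limma p under 0.05, where 4.16% of all genes were lower at that level.

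Most genes that process or hold the enzymes had lower means. Of 10 propeptide processing and docking genes tested, 8 were lower and 2 higher (median −1.04), where 37.4% of all genes were lower. At an unadjusted limma p under 0.05, 5 were lower and 0 higher, where 4.16% of all genes were lower. Bmp1, the protease that cuts the Lox propeptide, had levels of 2.66, 3.01 and 2.54 on antagomir arrays and 3.77, 4.58 and 3.49 on control arrays (−1.21, SE 0.31). Postn, or periostin, a matrix protein known to help Bmp1 act on Lox, had a fold change of −3.71 (SE 0.66), and fibronectin, Fn1, which binds Lox, of −2.55 (SE 0.46). Adamts2, a procollagen protease, had a fold change of −1.84 (SE 0.49). All 11 elastic fibre scaffold genes tested were lower without overlap, against 6.94% of all genes (median −1.12). Among them Mfap2 (−1.23, SE 0.20), Mfap4 (−3.43, SE 0.62), Fbln1 (−1.53, SE 0.30) and Fbn2 (−1.10, SE 0.26) had the lowest p-values. Of 7 fibril binding partners 6 were lower (median −1.12), where 37.4% of all genes were lower. The 6 include Dcn at −0.0018 (SE 0.17), with overlap. The lowest p-values were those of Lum at −1.59 (SE 0.31), Fmod, a proteoglycan that binds Lox, at −3.51 (SE 0.76), Dpt at −1.12 (SE 0.34) and Sparc at −0.67 (SE 0.22). Over all genes 0 members of these lists passed by limma, and 11 scaffold genes and 5 binding partners were lower at an unadjusted p under 0.05, against 4.16% of all genes.

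**Figure D3:**
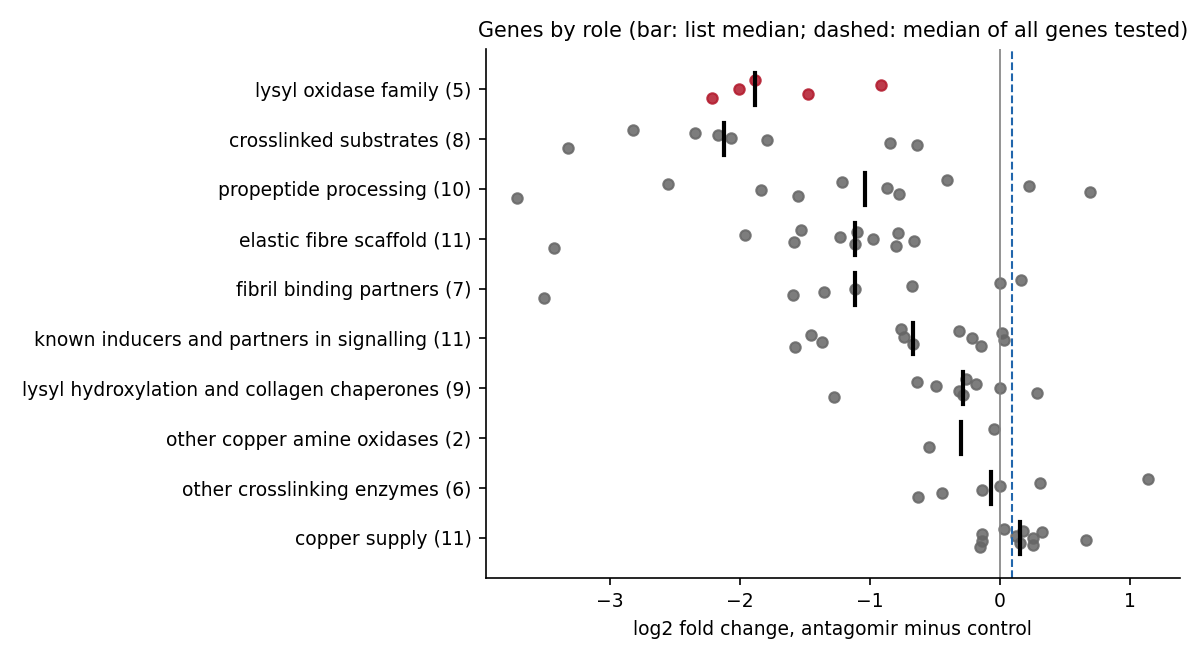
Log2 fold change (antagomir minus control) of each tested gene, grouped by its role around the lysyl oxidases, with the number tested in brackets, a bar for each list's median and a dashed line for the median of all genes tested, 0.09. The family median is −1.88 and that of the substrates −2.12, while copper supply lies at 0.16.

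Lists for steps before and beside the oxidation had medians nearer to 0. Of 9 lysyl hydroxylation and collagen chaperone genes 7 were lower (median −0.28), where 37.4% of all genes were lower. At an unadjusted limma p under 0.05, 1 was lower, where 4.16% of all genes were. This gene was P3h3, a partner of lysyl hydroxylase 1, at −1.28 (SE 0.32). Plod2, the hydroxylase of collagen telopeptides that sets the type of crosslink, had levels of 0.29, 0.38 and 0.24 on antagomir arrays and 0.71, 1.55 and 0.56 on control arrays (−0.64, SE 0.28). The 2 tested amine oxidases with copper that are not of this family were Aoc3 (−0.54, SE 0.19) and Aoc2 (−0.048, SE 0.14). Of 6 other crosslinking enzymes 3 were lower and 3 higher (median −0.066, which was 0.12 without antagomir array 3). Pxdn, the peroxidase that crosslinks collagen IV, had a value of −0.45 (SE 0.18), Tgm1 1.14 (SE 0.55), Qsox1 −0.63 (SE 0.31) and Tgm3 0.31 (SE 0.34). Tgm1 was well above background on 1 of 3 control arrays, and its levels were −4.11, −4.11 and −2.23 on antagomir arrays 1 to 3, so array 3, on which dim probes gave signal, stood apart. By limma, 0 of the genes in these lists passed after adjustment.

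Copper supply, on which the enzymes depend, had no common direction. Of 11 copper transport and storage genes 8 had higher and 3 lower means (median 0.16, but −0.026 with quantile and −0.31 with median scaling). Of all genes 62.6% had higher means. At an unadjusted limma p under 0.05 there were 0, where 4.16% of all genes were lower and 3.05% higher. Atp7a, the pump that loads secreted enzymes with copper, had levels of 1.59, 1.72 and 1.55 on antagomir arrays and 1.69, 1.91 and 1.70 on control arrays (−0.15, SE 0.14, 95% interval −0.48 to 0.18). Mt1, a metallothionein, had a value of 0.33 (SE 0.17), Mt2, another metallothionein, 0.25 (SE 0.26), and Atp7b 0.66 (SE 0.44). Atp7b was well above background on 1 antagomir and 2 control arrays. These groups overlapped except for Mt1.

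Of 11 known inducers and partners 9 were lower (median −0.67), where 37.4% of all genes were lower. At an unadjusted limma p under 0.05, 4 were lower, where 4.16% of all genes were, and 0 passed over all genes. Tgfb3 (−1.58, SE 0.34) and Tgfb2 (−1.45, SE 0.48) encode forms of TGF-beta, a known inducer of Lox. Tgfb1, which encodes another form, had a value of 0.034 (SE 0.16) with overlap. Ccn2, connective tissue growth factor, had a value of −1.37 (SE 0.50), and Snai2, of the Snail family of transcription factors, of −0.76 (SE 0.27). The antagomir arrays were close together for Ccn2, at 5.07, 4.95 and 5.04, against 5.79, 7.58 and 5.79 on control arrays.

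The genes with the course most like each member, over the 6 arrays and among 15486 tested genes with a current symbol, were found by the root mean square difference of centred levels. For Lox they were Col5a2 (0.13), a chain of type V collagen, Sfrp4 (0.15) and Enpp1 (0.15). For Loxl1 they were Antxr1 (0.097), Tgfb3 (0.13) and Dbn1 (0.13). For Loxl2 they were Mfap5 (0.12), Adamts2 (0.16) and Meox1 (0.16), and for Loxl3 Ism1 (0.19), Enpp1 (0.20) and Pdgfrl (0.20). Loxl4 stood nearest to Mirg (0.16), Gpc6 (0.16) and Camk1g (0.17). In this order Loxl3 was the eighth gene from Lox, and Lox was number 11 from Loxl3.

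Neighbouring protein-coding genes were taken in gene order from a RefSeq table of GRCm38.p6, and 8 of 10 were tested. Beside Lox, Srfbp1 had a fold change of 0.098 (SE 0.15), and beside Loxl1, Stoml1 of −0.18 (SE 0.18). Beside Loxl2, R3hcc1 had a fold change of −0.14 (SE 0.13), and beside Loxl4, R3hcc1l of −0.058 (SE 0.16) and Pyroxd2 of −0.54 (SE 0.25). Dok1, which lies before Loxl3, had a value of −1.34 (SE 0.50, limma adjusted p = 0.674), and Htra2 after it of −0.0056 (SE 0.14). Tbc1d21, after Loxl1, differed by 0.78 (SE 0.29, limma adjusted p = 0.675).

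Of the markers of cells that make the enzymes, those of myofibroblasts were lower with them. Some markers of fibroblasts, smooth muscle and pericytes were lower too, as given below. The summed signal of 6 myofibroblast markers was 45.9 to 61.0 times the 75th percentile on antagomir arrays and 98.5 to 321 times on control arrays, with all 6 lower and control array 2 at the top. Most of the difference in that sum came from Comp, which is also among the cartilage markers below. Its levels were 0.78, 0.93 and 1.57 on antagomir arrays and 5.47, 7.64 and 5.04 on control arrays. For Comp the fold change was −4.96 (SE 0.69), and for Acta2 −0.34 (SE 0.22) with overlap. Of the 6 markers, 5 were lower without overlap, where 6.94% of all genes were. Among them, Cthrc1 was well above background on 0 of 3 antagomir and 3 of 3 control arrays. It therefore entered the test through the control arrays alone. The sum of 7 fibroblast markers overlapped between groups, at 567 to 660 on antagomir arrays and 595 to 733 on control arrays, with 6 of the 7 lower. Most of that sum was Dcn, or decorin, and Gsn, at 93.3% to 95.9% on antagomir arrays and 81.0% to 88.3% on control arrays. Dcn had a value of −0.0018 (SE 0.17) and Gsn of 0.24 (SE 0.25), both with overlap. The other 5 markers summed to 23.2 to 44.1 on antagomir arrays and 81.5 to 139.5 on control arrays, without overlap, but this split of the list was not planned. Of these 5 markers Lum, Col1a1 and Dpt, with the fold changes given above, did not overlap between groups. These 3 also belong to the substrate and fibril partner lists. The groups overlapped for Pdgfra (−0.35, SE 0.21) and Tcf21 (−0.53, SE 0.36).

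The other marker lists are given by their sums in the same unit. Of all genes tested 37.4% had lower and 62.6% higher means. The sum of 4 cartilage markers was 2.35 to 3.89 on antagomir arrays and 34.2 to 203 on control arrays, mostly from Comp, and Sox9 had a value of −1.89 (SE 0.58). Endothelial sums were 34.3 to 43.2 on antagomir arrays and 40.5 to 45.6 on control arrays, with 5 of 6 lower. Smooth muscle and pericyte sums were 88.6 to 116.4 on antagomir arrays and 116.2 to 134 on control arrays, with 5 of 7 lower. Of these, 4 were lower without overlap, where 6.94% of all genes were. Macrophage sums were 35.1 to 104 on antagomir arrays and 64.5 to 64.9 on control arrays, with 6 of 7 lower. All 8 cardiomyocyte markers had higher means in the setting used for the text, with a median fold change of 0.22, against 0.09 over all genes tested. Their direction depended on the scaling. The highest of the 8 values was 0.45, for Pln. Median scaling lowered every fold change by the same amount, that of Lox from −2.21 to −2.69. That shift is larger than any of the 8 values, so with median scaling all 8 were lower. Atrial sums ran from 33.0 to 814 on antagomir arrays and from 393 to 632 on control arrays, with 3 of 4 tested markers higher, 1 lower, and all 4 overlapping. Sln had levels of −1.46, 5.10 and 6.63 on antagomir arrays 1 to 3, against −4.01, −2.14 and 0.53 on control arrays 1 to 3. Antagomir arrays 2 and 3 lay far above the other 4 for Sln. Myl4 had a value of 3.10 (SE 1.57) and Nppa of −1.71 (SE 0.99). Adipocyte sums were 0.535 to 3.26 on antagomir arrays and 0.0354 to 1.37 on control arrays. Epicardial and mesothelial sums were 1.68 to 9.22 on antagomir arrays and 3.19 to 5.24 on control arrays. The part of these cell types in the lysyl oxidase values was not tested.

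All 5 members were lower in each of 19 other settings. Control arrays 1 and 2 were alone in row 1 of the slide, so a fit with the slide row as a block sets control array 3 by itself against the antagomir arrays. In that fit the fold changes were −1.33 for Lox, −1.18 for Loxl1, −1.64 for Loxl2, −1.35 for Loxl3 and −0.75 for Loxl4, with 0 at an unadjusted limma p under 0.05. The median processed signal was 77.8 on antagomir array 3 and 26.2 to 34.8 on the other arrays. With each array scaled by its median, Lox, Loxl2 and Loxl3 passed over all genes (limma adjusted p = 0.00209, 0.0141 and 0.00707). Median scaling moved every fold change by the same amount, Lox from −2.21 to −2.69 and Loxl1 from −1.48 to −1.95. That scaling moved the median of all genes to −0.38, against 0.09 with the 75th percentile and −0.029 with quantile scaling, it passed 0.865% of all genes, and limma gave each family gene the same SE of 0.60.

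**Figure D4:**
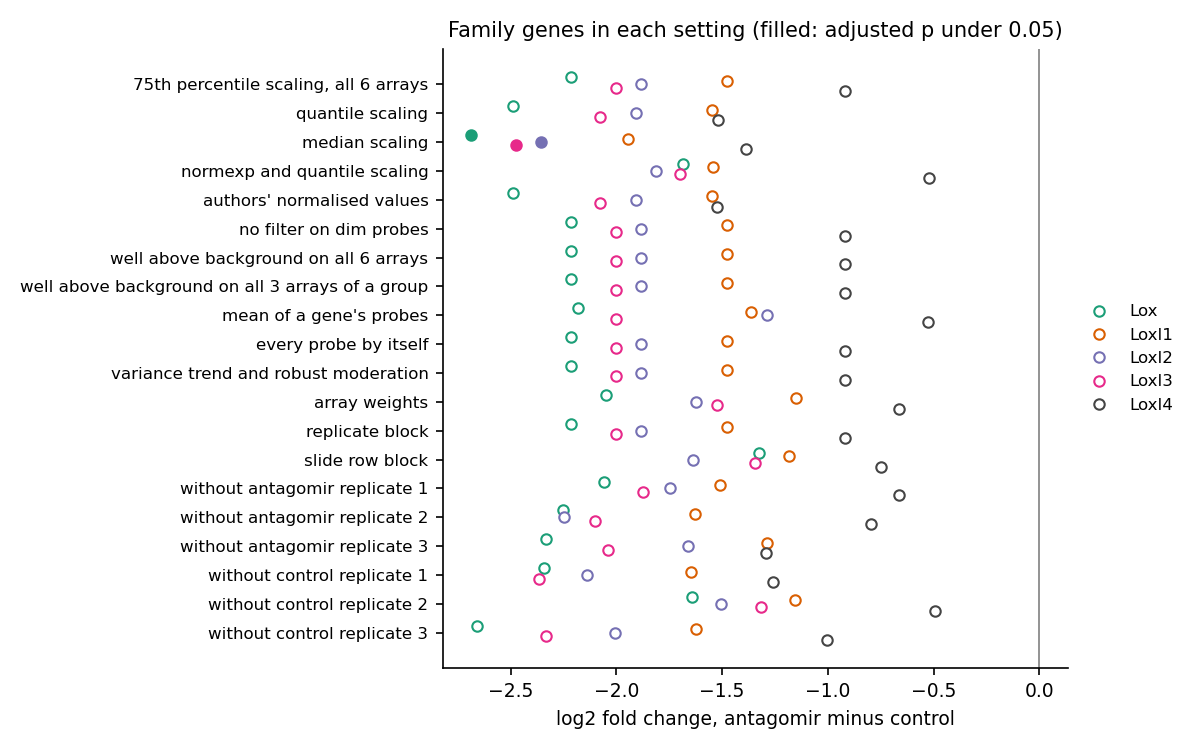
Log2 fold change (antagomir minus control) of the 5 family genes in the setting used for the text, top row, and in 19 others, with filled points where the limma adjusted p is under 0.05. Every point lies below 0, and filled points occur only with median scaling, for Lox, Loxl2 and Loxl3.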

How the data were processed

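Total RNA was labelled with Cy3 and hybridised to Agilent arrays of 1 colour. Scanner output deposited by the authors came, per the file headers, from Agilent Feature Extraction 10.7.1.1 and holds processed, mean and local background signals as intensity, plus other values of 0 or 1 per spot. The deposited table holds raw intensity columns within 1% of the processed signal for 100% of probes and log2 columns that the authors normalised by a method not given in the sources used here. Its sorted log2 columns differ by at most 0.00143.

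Outlier and control spots were left out, spots of a probe averaged, and log2 processed signals scaled to the 75th percentile of each array. A probe entered the test when at least 3 arrays had it well above background (31725 probes), and 20 probes lacked a usable spot on some array. The probe with the highest mean stood for its gene. 0 spots were saturated. The number of arrays limits the precision. The comparison used limma 3.58.1 (R 4.3.3), two-sided, with Benjamini-Hochberg adjustment and a threshold of 0.05, tested first on simulated data. Python 3.11.15 made tables and figures. Names were updated with a RefSeq table (GRCm38.p6, 26576 probes by accession). Over all genes 3 passed, all higher and none of the family: Defa-ps1, Gngt1 and an unnamed locus on chromosome 6, chosen after their values were seen. On control arrays their mean levels were only −7.10, −7.21 and −7.13, against −1.55, −3.03 and −2.86 on antagomir arrays. With signal well above background required on all 6 arrays, 0 genes passed.

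Members and lists were chosen with earlier results of these data known. Named are all members, up to 4 genes of the lowest p in each pathway list, marker genes among the 3 brightest, and the 3 genes nearest each member. Chromosomal neighbours are outside this rule and were taken by position, and Tgfb1 was added as another form of TGF-beta. Cthrc1, Pdgfra and Tcf21 are marker genes outside this rule too, added for their values. Alternatives were other scalings, background correction, filters, probe rules, variance models, blocks, the authors' table and each array left out.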

Additional observations from a re-analysis of the deposited data

How the results depend on the processing

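All 5 family genes were lower in all 19 other settings, and 0 of 5 passed over all genes by limma in 18 of them (at an unadjusted p under 0.05, 0 of 5 with the slide row block, 5 of 5 with quantile scaling, normexp, the authors' values and without antagomir array 3, and 4 of 5 in the others). Median scaling passed 3, with Lox at −2.69, Loxl2 at −2.36 and Loxl3 at −2.48. Of all genes 3 passed, against 199 with median scaling, 8 with array weights, 6 with every probe by itself, and 1 with quantile scaling, with the authors' values and with no filter. There were 0 with normexp, with signal above background on all 6 arrays and with the slide row block (1872, 1586 and 306 at an unadjusted limma p under 0.05), and 0 to 3 with 1 array left out, 0 without any one control array (1205, 911 and 1771 at that level). Deviations of arrays with the same replicate number in both groups had correlations of 0.22, 0.14 and −0.049. Those of arrays with different numbers ran from −0.28 to 0.17, which does not decide whether the numbers pair the arrays. With replicate number as a block 0 of all genes passed (2271 unadjusted) and 0 of the family. In that fit Lox was −2.21 (SE 0.47, limma adjusted p = 0.380). Loxl2 was −1.88 with an SE of 0.16, against 0.45 without the block (limma adjusted p = 0.213 with it).

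Median scaling moved list medians to −2.59 for substrates, −1.51 for propeptide processing, −1.59 for elastic fibre scaffold, −0.75 for hydroxylation, −0.31 for copper supply, −1.59 for fibril partners, −0.77 for other amine oxidases, −0.54 for other crosslinking enzymes and −1.14 for inducers. The copper median was −0.026 with quantile scaling and with the authors' values, −0.023 with normexp and −0.016 with the slide row block, which put the substrates at −1.63. Inducers were at −0.25 with array weights. Other amine oxidases were at −0.048 with no filter and with every probe by itself. Other crosslinking enzymes ran from −0.24 to 0.12 with 1 array left out. Of the differences between members, 3 turned sign with 1 array left out, Lox minus Loxl3 (−0.33 to 0.021), Loxl1 minus Loxl4 (−0.85 to 0.0076) and Loxl2 minus Loxl3 (−0.19 to 0.38). The causes were not tested. Dim probes, Loxl4 above all, are limited by signal over background.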

Other observations

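Probes of the same gene gave different sizes for Loxl2. The probe at chr14:70095254-70095313 had a fold change 1.34 log2 units below that of the probe at chr14:70090017-70090076, and the probe at chr14:70092141-70092200 one 0.88 below it. In both pairs the per-array differences did not overlap between groups (exact two-sided permutation p = 0.1, the smallest that 3 against 3 allows, and 0.2 after Benjamini-Hochberg adjustment over the 6 probe pairs of the family). The comparison was chosen after the values were seen. With the mean of a gene's probes the Loxl2 fold change was −1.29, against −1.88 for the probe with the highest mean. The Loxl1 probes differed by 0.22 in the same sense without overlap, and the Lox probes by 0.068 with overlap. The Loxl4 probes, both dim, differed by 0.78 with overlap.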
